A study of Rattus norvegicus with 8 samples.

Results

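Mitochondrial chaperones and proteases fold, refold, disassemble and degrade proteins inside mitochondria, and 9 of their genes are described here: Clpb, Clpp, Clpx, Hspd1, Hspe1, Hspa9, Lonp1, Trap1 and Prelid1. They are 9 of the 14217 genes that a rat expression array names with 1 symbol, and 15 of its 31042 probe sets measure them. The members are all probe sets whose only annotated symbol is one of these names. The names were chosen by their quercetin against control differences on these arrays, among other things, and so every difference between the diets given for them is a description and supports nothing.

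The arrays held total RNA from mucosa scraped from the distal colon of rats fed for 11 weeks. The quercetin group (4 arrays) received 10 g of quercetin, a plant flavonol, per kg of a breeder diet, and the control group (4 arrays) received the control diet. The labels used here give no strain, sex or age and do not say that each array holds a separate rat, so the errors measure the spread between these 8 samples, which may be technical. The study asked how long-term quercetin feeding alters transcripts of the colon mucosa. A scraping holds several cell types, and in such bulk RNA fewer cells of a type and less RNA per cell cannot be told apart.

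Most mitochondrial proteins are made in the cytosol and threaded in unfolded. Hspa9 (mortalin) pulls them through the inner membrane, and the Hspd1 barrel with its Hspe1 lid folds them. Trap1 is the mitochondrial form of Hsp90, and Clpb is a disaggregase of the intermembrane space. Lonp1 and the pair Clpp and Clpx are the soluble proteases of the matrix: Clpx unfolds the substrate and Clpp cuts it. Prelid1, which is not a chaperone, carries phosphatidic acid between the membranes with its partner Triap1, a step towards cardiolipin. When misfolded protein builds up in mitochondria, a stress response is known to raise several of these transcripts in mammalian cells.

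RefSeq windows (build GRCr8) of the 250 bases before a transcript start were matched for 6 of the 9 genes: Clpb, Clpp, Hspd1, Hspe1, Trap1 and Hspa9. Those of Clpb, Clpp, Hspd1 and Hspa9 lie inside the annotated span of the gene, which begins farther upstream. For these genes the bases before that farther end were not searched. Hspd1 and Hspe1 lie head to head on chromosome 9. The starts used here are 290 bases apart, and the windows share 211 bases. The annotated span of Hspd1 runs to 64084332, past the start of Hspe1 at 64084327. The window of Hspe1 (chr9:64084077-64084326, + strand) is shown because one stretch of it lies in the windows of both genes. That of Trap1 (chr10:11971009-11971258, + strand) is shown because the Trap1 signal followed that of Hspd1 most closely among the members. Both run 5′ to 3′, and capitals mark matches to the motifs named next.
Hspe1: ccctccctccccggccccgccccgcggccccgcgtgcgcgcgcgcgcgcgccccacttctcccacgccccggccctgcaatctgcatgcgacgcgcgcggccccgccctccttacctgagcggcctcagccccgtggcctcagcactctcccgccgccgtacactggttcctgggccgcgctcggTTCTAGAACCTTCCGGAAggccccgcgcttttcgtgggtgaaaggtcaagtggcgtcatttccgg
Trap1: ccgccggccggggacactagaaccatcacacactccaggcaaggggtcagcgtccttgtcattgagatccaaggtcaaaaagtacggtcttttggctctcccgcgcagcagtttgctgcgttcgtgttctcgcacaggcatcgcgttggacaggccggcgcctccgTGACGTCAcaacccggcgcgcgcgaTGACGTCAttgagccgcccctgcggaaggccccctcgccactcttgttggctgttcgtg

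The capitals in the Hspe1 window are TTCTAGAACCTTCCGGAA (chr9:64084262-64084279), which joins the inverted repeats of the heat shock element, TTCNNGAA and GAANNTTC, in an overlapping run, N being any base. The run starts 65 bases before the start of Hspe1. Read on the other strand as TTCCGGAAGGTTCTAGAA, it starts 242 bases before the Hspd1 start used here, inside the annotated span of Hspd1. The whole pattern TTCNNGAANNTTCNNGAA was looked for after the run had been seen, and 8 of 33469 windows in the RefSeq table held it, or 0.0239%. These include the windows of Hspd1 and of Hspe1, which hold the same run. Single matches are common: 7.48% of windows hold TTCNNGAA and 7.23% hold GAANNTTC, and Clpp and Hspa9 each have a GAANNTTC. The capitals of Trap1 are 2 copies of TGACGTCA, the cyclic AMP response element. Of all windows 1.59% hold it at least once. The count of windows with at least 2 copies, 0.0299%, was also added after the first search. TGATGNAA, the core bound by ATF4 and CHOP, was found in Hspa9 and in 3.4% of windows, and CCAAT (34% of windows) and the binding motif of NRF1 (3.75%) were found in none of the 6. Both strands were searched, and a match is a description of letters and not a site.

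On all 8 arrays the mean MAS5 signal (the array software's linear intensity for a probe set), with 2% trimmed at either end, was 200.1. Control array 2 stood apart from the rest. Its beta-actin signal ratio of 3′ to 5′ probe sets, a measure of RNA integrity, was 21.4. The ratio was 6.79 to 9.12 on the quercetin arrays and 8.65 to 12.4 on the other control arrays. Its correlation with the others averaged 0.927, the lowest, followed by control array 1 with 0.941 and quercetin array 1 with 0.943. Control array 1 was the lowest of the 8 for Hspd1, Hspe1, Trap1, Clpp and the brightest Lonp1 and Clpb probe sets. Differences are therefore also given without control arrays 1 and 2 together. Control array 1 was picked by the members' own values, so leaving it out lowers the differences of those genes by construction. Signals were compared as log2(signal + 16) with limma over the 18625 probe sets in the upper 60% by mean, and a difference is quercetin minus control, with its standard error (SE).

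Of the 15 member probe sets 13 were bright enough to be tested, and each of the 9 genes had at least 1. Of these 13, 9 had a higher and 4 a lower mean in quercetin, with a median difference of 0.29. Over all 18625 probe sets tested 51.3% were higher, with a median difference of 0.01. The 9 include Clpp (0.00) and Hspe1 (0.04), whose sign changed under some other settings. None of the 13 passed limma's threshold after Benjamini-Hochberg adjustment over all probe sets (adjusted p = 0.221 to 0.997), and 0.0107% of all tested probe sets did. In 4 of the 13, one each for Clpb, Lonp1, Trap1 and Prelid1, every quercetin array lay above every control array, and 3.09% of all tested probe sets did likewise; in 0 of the 13 every quercetin array lay below, against 3.3% of all. An unadjusted limma p under 0.05 was found for 5, all higher in quercetin, against 5.04% of all tested probe sets in that direction, while 0 were lower at that limit, against 5.71%. The members were named with these values in view, so nothing is read from these shares.

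**Figure D1:**
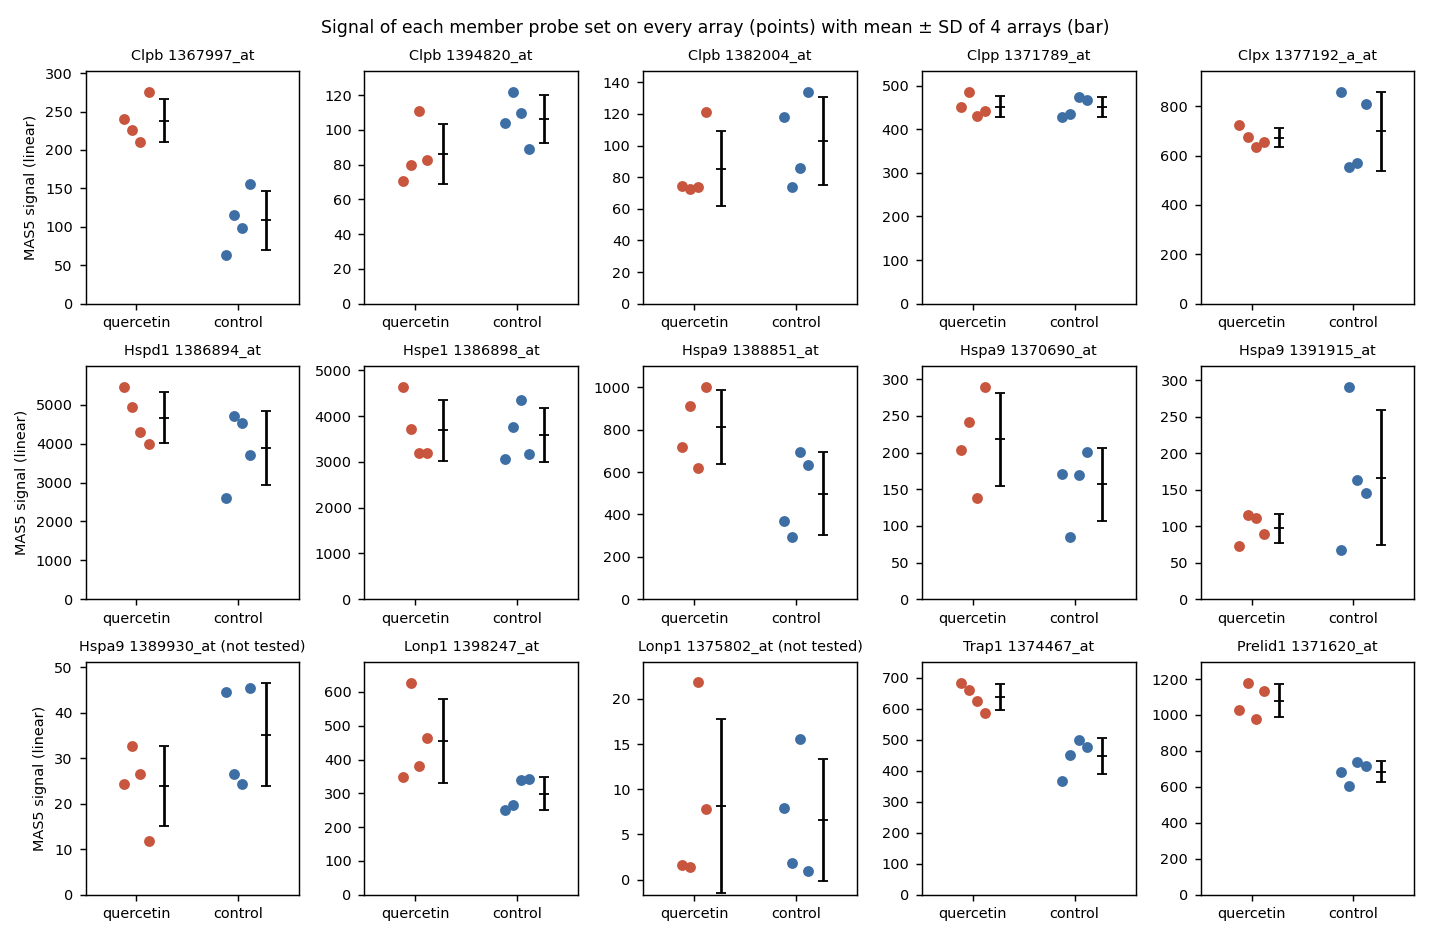
Linear MAS5 signal of the 15 member probe sets on each of the 4 quercetin (red, left) and 4 control arrays (blue, right), with the mean and SD of each diet as a black bar and a separate axis for each panel. The diets do not overlap for Clpb 1367997_at, Lonp1 1398247_at, Trap1 and Prelid1, while the other probe sets of Clpb and Lonp1 and all others overlap.

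Among the folding chaperones of the matrix, Hspd1, the barrel of the chaperonin, had signals of 5445, 4952, 4303 and 3982 on quercetin arrays 1 to 4, against 2604, 4697, 4521 and 3713 on control arrays 1 to 4. The diets overlapped, and control array 1 was the lowest of the 8. The difference was 0.29 (SE 0.18, limma adjusted p = 0.603), and it was 0.11 without control array 1 and 0.18 without control arrays 1 and 2. Hspe1, the lid, averaged 3689 ± 673 in quercetin and 3590 ± 590 in control (SD, n = 4 each), a difference of 0.04 with a 95% interval of -0.30 to 0.37, and -0.03 without control arrays 1 and 2. Its 4 quercetin signals spanned 3200 to 4629, and its 4 control signals 3073 to 4352. Hspd1 was thus higher on average and Hspe1 nearly level, and both intervals include 0.

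Trap1 had signals of 684, 660, 625 and 588 on quercetin arrays 1 to 4, against 368, 451, 499 and 478 on control arrays 1 to 4. All quercetin arrays lay above all control arrays, and the spread within quercetin was narrow, with a coefficient of variation of 6.54%, against 12.8% in control. The difference was 0.50 (SE 0.14, limma adjusted p = 0.28), or 0.38 without control arrays 1 and 2.

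Hspa9, the motor that pulls proteins into the matrix, has 4 probe sets and they disagreed. The brightest, 1388851_at, read 720, 913, 619 and 999 on quercetin arrays 1 to 4, against 371, 293, 695 and 632 on control arrays 1 to 4. The lowest 2 values came from control arrays 1 and 2, and quercetin array 3 lay below control arrays 3 and 4. Its difference of 0.75 (SE 0.25, limma adjusted p = 0.34) was 0.26 without those 2 control arrays. The next, probe set, 1370690_at, had 218 ± 63.5 in quercetin and 157 ± 49.7 in control (SD, n = 4 each), a difference of 0.45 (SE 0.26) that was 0.18 without control arrays 1 and 2. Another, 1391915_at, went the other way, with 97.5 ± 19.7 in quercetin and 167 ± 92.5 in control (SD, n = 4 each). Its difference was -0.56 (SE 0.32), and control arrays 1 and 2 were the lowest and the highest of the control group, at 67.1 and 290.5. Without control array 1 it was -0.89, without control array 2 it was -0.26, and without both it was -0.60. The last, 1389930_at, was too dim to be tested, with signals of 11.8 to 32.7 in quercetin and 24.3 to 45.3 in control. Centred within each diet, the 2 brightest followed each other over the 8 arrays (Pearson r = 0.82, a description), whereas 1391915_at had r of -0.13 and -0.56 with them.

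Clpb, which pulls aggregated protein apart, had the largest difference of the members, on 1 of its 3 probe sets. On 1367997_at the signals were 240, 226, 211 and 276 on quercetin arrays 1 to 4, against 63.7, 115, 98.9 and 155 on control arrays 1 to 4. All quercetin arrays lay above all control arrays, and the difference was 1.08 (SE 0.22, limma adjusted p = 0.224), a fold of 2.11 on the transformed scale, or 0.85 without control arrays 1 and 2. The other Clpb probe sets pointed the other way and overlapped. On 1394820_at the mean was 86.0 ± 17.3 in quercetin and 106 ± 13.6 in control (SD, n = 4 each), a difference of -0.27 (SE 0.20), or -0.19 without control arrays 1 and 2. On 1382004_at it was 85.5 ± 24.0 in quercetin and 103 ± 27.9 in control (SD, n = 4 each), a difference of -0.22 (SE 0.24), or -0.31 without those arrays. Nor did the 3 follow one another within the diets: 1367997_at had a centred r of -0.32 with 1394820_at and 0.24 with 1382004_at. The platform annotation lists a RefSeq transcript as the target of 1367997_at and a database sequence of another kind for each of the other Clpb probe sets, and where each lies in the gene was not tested.

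**Figure D2:**
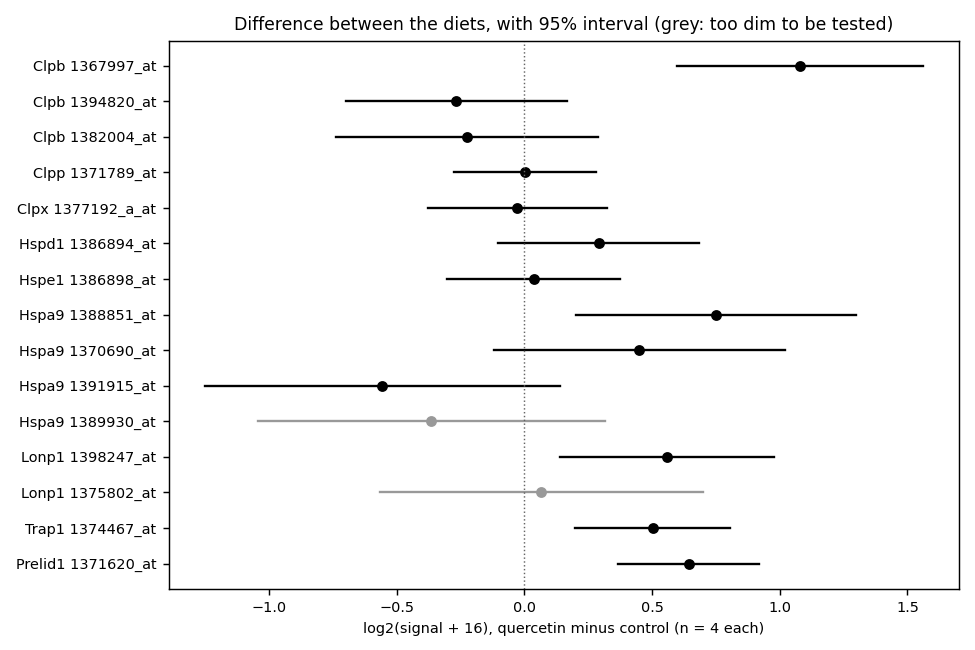
Difference in log2(signal + 16), quercetin minus control, for each member probe set (points) with its unadjusted 95% interval (lines), 4 arrays per diet; grey marks the 2 probe sets too dim to be tested. Clpb and Hspa9 each have probe sets on both sides of 0, from -0.27 to 1.08 and from -0.56 to 0.75.

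Of the matrix proteases, Lonp1, which degrades oxidised matrix proteins, read 349, 627, 381 and 463 on quercetin arrays 1 to 4, against 249, 265, 339 and 342 on control arrays 1 to 4 (1398247_at). The diets did not overlap, though quercetin array 1 exceeded control array 4 by little (348.9 against 341.7). The difference was 0.56 (SE 0.19, limma adjusted p = 0.344), or 0.40 without quercetin array 2, the highest, and 0.37 without control arrays 1 and 2. The other Lonp1 probe set, 1375802_at, was brighter than 6.9% of the probe sets on the array, with signals of 1.40 to 21.9 in quercetin and 0.938 to 15.6 in control, and was not tested.

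Clpp, the cutting subunit of the other protease, was the steadiest member. It had 450, 486, 429 and 442 on quercetin arrays 1 to 4, against 429, 434, 474 and 467 on control arrays 1 to 4. The difference was 0.00 (SE 0.13), with a 95% interval of -0.27 to 0.28, and the coefficient of variation was 5.34% in quercetin and 5.03% in control. Clpx, its unfolding partner, averaged 672 ± 37.9 in quercetin and 697 ± 158 in control (SD, n = 4 each). Its difference was -0.03 (SE 0.16), and the control arrays fell into a high pair (858 and 808, arrays 1 and 4) and a low pair (552 and 571, arrays 2 and 3) on either side of the quercetin range of 634 to 723. The 95% interval of Clpx ran from -0.38 to 0.32, so neither interval excludes a modest difference. Without control arrays 1 and 2 the differences were -0.06 for Clpp and -0.02 for Clpx.

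Prelid1, the lipid carrier, had signals of 1028, 1179, 977 and 1135 on quercetin arrays 1 to 4, against 683, 607, 736 and 716 on control arrays 1 to 4. The diets were well apart, with 977 the lowest quercetin and 736 the highest control signal. The difference was 0.64 (SE 0.13, limma adjusted p = 0.221), a fold of 1.56 on the transformed scale, and 0.56 without control arrays 1 and 2. Triap1, its partner in lipid transfer, had a difference of -0.07 (SE 0.16).

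Within the diets some of the members varied together in 2 sets. Each gene's brightest probe set was centred on the mean of its diet, and r was computed over the 8 arrays as a description. Hspd1, Hspe1 and Trap1 followed one another, with r of 0.88 for Hspd1 and Trap1, 0.80 for Hspd1 and Hspe1, and 0.70 for Hspe1 and Trap1. Clpp, Lonp1, Hspa9 and Prelid1 formed another set, with r of 0.71 to 0.89 among them. Between Hspd1 and Prelid1 r was -0.14, and between Hspd1 and Hspa9, chaperones of the same import path, 0.07. The sets were not fully separate: Clpp had r of 0.68 with Trap1, 0.45 with Hspd1 and 0.42 with Hspe1, and Trap1 had 0.42 with Hspa9 and 0.37 with Lonp1. Clpb was in neither set, with r of 0.59 with Trap1, 0.47 with Hspd1, 0.41 with Hspa9 and 0.06 with Hspe1. Clpx had r of -0.68 with Hspd1 and -0.07 with Clpp, its partner. All points share the array scaling, and the sets were seen in the same values they describe. How often other probe sets reach such r is not given here.

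**Figure D3:**
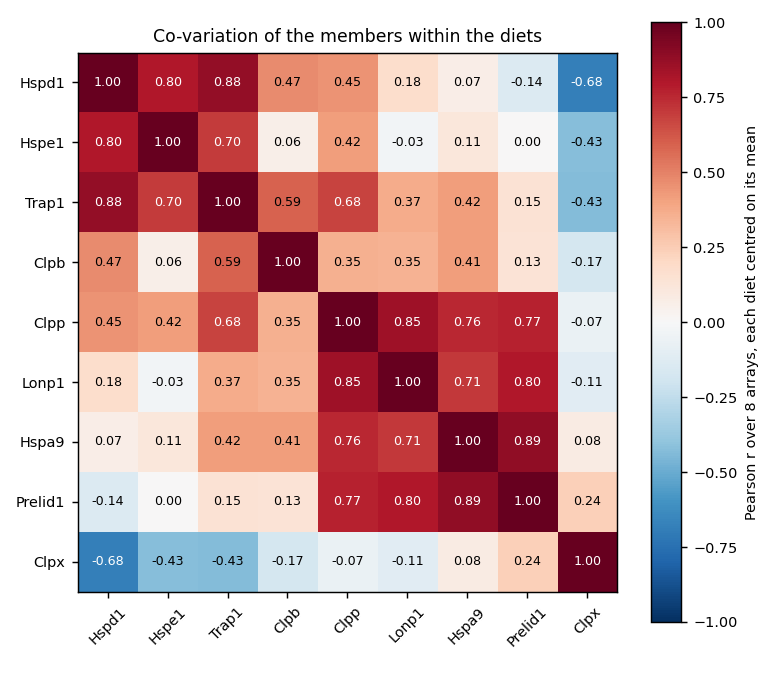
Pearson r over 8 arrays for each pair of members, with log2(signal + 16) of the brightest probe set centred on the mean of its diet; red is positive and blue negative. Hspd1, Hspe1 and Trap1 (0.70 to 0.88) and Clpp, Lonp1, Hspa9 and Prelid1 (0.71 to 0.89) form 2 blocks that Clpp and Trap1 (0.68) join, and Clpx is negative with most others.

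Uncentred relations were tested for 4 pairs chosen for shared promoter, complex or path. The arrays of both diets were permuted together, so a diet difference common to a pair enters r and its p-value. The members were chosen by their values on these arrays, and the adjustment covers 4 of their 36 pairs. The p-values below are therefore descriptions, and a cause of any relation, such as a shared promoter, was not tested. Hspd1 and Hspe1, the pair with the overlapping windows described above, had Pearson r = 0.74 (exact permutation p = 0.00327, adjusted over 4 pairs 0.0131) over the 8 arrays, two-sided. Their Spearman rho was 0.90 (exact permutation p = 0.00456, adjusted 0.0182). Within the diets r was 0.95 on the quercetin and 0.80 on the control arrays, which at 4 arrays each has no test of its own. Without the 2 arrays farthest from the median of Hspd1, control 1 and quercetin 1, r was 0.68. Hspd1 had r = 0.37 with Hspa9 (exact permutation p = 0.393, adjusted 0.524; rho = 0.29, exact permutation p = 0.501, adjusted 0.668), and -0.20 without the same 2 arrays. With Lonp1 it had r = 0.46 (exact permutation p = 0.22, adjusted 0.439; rho = 0.36, exact permutation p = 0.389, adjusted 0.668), and 0.21 without them. Clpp and Clpx, which work as one protease, had r = -0.07 (exact permutation p = 0.874, adjusted 0.874; rho = -0.07, exact permutation p = 0.882, adjusted 0.882), and 0.35 without quercetin array 2 and control array 3.

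Among all tested probe sets of other named genes, those with the highest centred r with Hspd1 over the 8 arrays were Slc16a7 (0.997), Cftr (0.994), Cep128 (0.989), Etv5 (0.987) and Racgap1 (0.987). For the brightest Clpb probe set they were Bptf (0.978), Manbal (0.973), Ddx19b (0.969), Ganab (0.95) and Mfsd5 (0.949). They are the highest of 13718 probe sets searched for Hspd1 and of 13716 for Clpb, over few arrays, and none of these 10 genes passed limma's threshold between the diets (adjusted p = 0.285 to 0.98).

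Related mitochondrial genes were read from lists, each gene by its brightest tested probe set, beside all 10266 genes, of which 55.9% had a higher mean in quercetin with a median difference of 0.04. In none of the lists did a gene pass limma's threshold in either direction, and of all genes 1 did, or 0.00974%. At an unadjusted limma p under 0.05, 6.06% of all genes were higher and 3.33% lower. Co-chaperones and folding cofactors had 13 of 14 measured genes higher and 1 lower, with a median of 0.16 and 2 at an unadjusted p under 0.05. These were Dnajc30, a J-domain protein (0.65, SE 0.17, adjusted p = 0.273), and Dnaja3, a J-domain partner of Hspa9 (0.67, SE 0.22, adjusted p = 0.337). Dnajc30 read 203, 187, 169 and 191 on quercetin arrays 1 to 4, against 125, 90.7, 122 and 119 on control arrays 1 to 4, with no overlap. Its other probe set was too dim to be tested.

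Other proteases and peptidases of mitochondria had 13 of 16 higher and a median of 0.14, with 1 at an unadjusted p under 0.05. The smallest p-values were those of Mipep, which trims imported proteins (0.38, SE 0.16, limma adjusted p = 0.428), and Pmpcb, a subunit of the enzyme that removes targeting sequences (0.34, SE 0.17, limma adjusted p = 0.501). The import machinery had 16 of 27 higher and a median of 0.09, with 3 at that limit, led by Samm50, which inserts outer membrane proteins (0.34, SE 0.15, limma adjusted p = 0.445), and Timm13, a small chaperone between the membranes (0.26, SE 0.12, limma adjusted p = 0.455). The PRELI family and cardiolipin enzymes had 8 of 10 higher and a median of 0.15, with 1 at that limit. Crls1, cardiolipin synthase, had 0.58 (SE 0.21, limma adjusted p = 0.355), though another Crls1 probe set had -0.05, and Lclat1, which remodels cardiolipin, had 0.24 (SE 0.17, limma adjusted p = 0.636).

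Regulators linked to the mitochondrial unfolded protein response had 8 of 15 higher and 7 lower, with a median of 0.08, and 1 in each direction had an unadjusted p under 0.05. Ddit3 (CHOP), a transcription factor of that response and of the endoplasmic reticulum stress response, was lower on every quercetin array, at 214, 240, 258 and 239 on arrays 1 to 4, against 331, 331, 372 and 367 on control arrays 1 to 4. Its difference was -0.53 (SE 0.14, limma adjusted p = 0.279). Cebpb, which can pair with it, had 0.57 (SE 0.23, limma adjusted p = 0.408). Chosen after their values were seen, Atf5 had -0.00 (SE 0.19), Atf4 -0.10 (SE 0.15) and Hsf1, the factor that binds heat shock elements, -0.19 (SE 0.24). Genes of mitochondrial content, such as porins and respiratory chain subunits, had 11 of 19 higher and a median of 0.02, with 1 at an unadjusted p under 0.05. Their summed signal spanned 88095 to 98480 in quercetin and 84055 to 103352 in control. Of these, Ndufv1 of complex I had 0.46 (SE 0.15, limma adjusted p = 0.333) and Slc25a5, the ADP/ATP carrier, -0.24 (SE 0.12, limma adjusted p = 0.488).

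**Figure D4:**
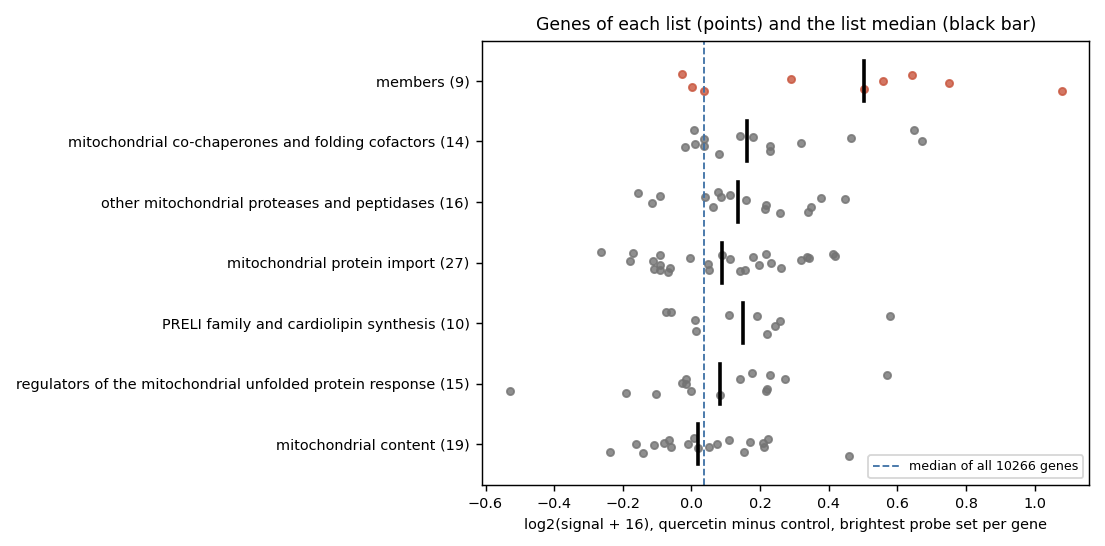
Difference in log2(signal + 16), quercetin minus control, of each gene's brightest tested probe set (points) by list, with the list median (black bar), the number of genes in brackets, and the median of all 10266 genes (dashed line, 0.04). The 9 members, chosen with these values known, have a median of 0.50, and the other mitochondrial lists have medians of 0.02 to 0.16.

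Cell type markers showed what the scrapings held. All 15 absorptive colonocyte markers and all 8 goblet cell markers were bright enough to be tested, which fits the label of colon mucosa, and their median differences were both 0.09. Smooth muscle markers were lower in quercetin in their summed signal, while their mean log2 values overlapped. The 7 of 11 that were bright enough summed to 3251 to 3674 in quercetin and 3780 to 5701 in control, with no overlap. Their mean log2 value per array was 7.83 to 8.03 in quercetin and 7.70 to 8.12 in control. Their median difference was 0.11, but its sign was not stable: it was -0.24 with the upper 40% of probe sets, and 4 of the fits that left out 1 array also gave a median below 0, the lowest being -0.10 without control array 1. Most of that sum was Tpm1 (-0.32, SE 0.13) and Mylk (-0.42, SE 0.21), though the other 4 tested Tpm1 probe sets ran from -1.41 to 0.35. Of the 7 markers, 4 had a higher and 3 a lower mean in quercetin. The higher ones were Tpm2 (0.71, SE 0.37), Smtn (0.13, SE 0.16), Des (0.11, SE 0.33) and Acta2 (0.11, SE 0.30), and Myh11 was lower (-0.24, SE 0.19). The sum thus follows its brightest genes and is not a measure of muscle content. The defining markers Actg2, Tagln, Cnn1 and Myl9 were too dim to be tested. Fibroblast markers (3 of 8) summed to 184 to 312 in quercetin and 176 to 289 in control, with a median difference of 0.14. Lymphocyte markers (3 of 13) summed to 364 to 681 in quercetin and 277 to 607 in control, with a median difference of 0.19, and those of macrophages and dendritic cells (4 of 9) to 2250 to 2661 in quercetin and 1304 to 3578 in control, with a median of 0.30. The part of other cells in the members' values was not tested, nor was that of RNA integrity. With the GAPDH 3′ to 5′ ratio as a covariate the differences were 1.11 for Clpb 1367997_at, 0.63 for Prelid1, 0.52 for Trap1, 0.56 for Lonp1 and 0.70 for the brightest Hspa9 probe set. In the same fit they were -0.24 for Clpb 1394820_at, -0.28 for Clpb 1382004_at and -0.42 for Hspa9 1391915_at. Hspa9 1370690_at had 0.36, Hspd1 0.34, Hspe1 0.05, Clpp 0.00 and Clpx -0.07. The beta-actin ratio was not tried as a covariate.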

How the data were processed

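Total RNA of 8 rat distal colon scrapings was hybridised to expression arrays, and samples were grouped by their titles. The deposited intensity values are linear MAS5 signals, 1 per probe set and array, made by the authors with MAS5, as stated in the submitters' processing notes. The software scales each array to a common mean, which assumes that most transcripts are stable, and dim signals scatter widely on a log scale. Other steps and versions: not given in the sources used here.

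Of 31099 probe sets, 57 controls were left out. Array medians of log2 signal differed by 0.407 at most, under the 0.5 set for adding a normalisation. Values were taken as log2(signal + 16), which understates the fold of dim probe sets. The upper 60% by mean were tested with limma 3.58.1 in R 4.3.3 (lmFit, eBayes with trend, two-sided, Benjamini-Hochberg, threshold 0.05). The median SE was 0.222, and precision is limited by the number of arrays. The steps were tested on simulated data. Symbols came from the platform annotation (1 for 20826 probe sets, several for 436, none for 9780). Correlations and exact permutation tests used SciPy 1.17.1, and sequences are from RefSeq (GRCr8).

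The members, lists and tests were chosen with earlier results of these data known. Every member probe set is shown. Of each other list the text names up to 4 genes past the threshold or else the 2 of smallest p, and for Hspd1 and Clpb the 5 genes with the highest centred r. For smooth muscle all 7 tested markers are given. Fibroblast (Vim 0.14, Col3a1 0.22), lymphocyte (Lck 0.28, Ptprc 0.19), macrophage (Lyz2 0.57, Csf1r 0.67), goblet (Spink4 1.37, Muc2 -0.21) and colonocyte markers (Slc9a3 0.72, Slc16a1 0.43) follow the same rule, and none passed. Other settings tried were no filter or the upper 40%, a pseudocount of 1 or 64, centring on medians, quantile normalisation, array weights, a replicate block, no trend, 1 probe set or the mean per gene, the GAPDH ratio as a covariate, each array left out, and control arrays 1 and 2 left out together.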

Additional observations from a re-analysis of the deposited data

Results flagged for a closer look

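Among 126 groups of 4 arrays examined (each diet for the probe sets and lists named), a single array lay far off in 5, and about 6.3 such groups arise by chance. In brackets stands that array's distance to its nearest neighbour divided by the group's range. Clpb 1382004_at was high on quercetin array 4, at a signal of 121 against 72.6 to 74.1 on the other quercetin arrays (0.96). Dnajc30 was low on control array 2, at 90.7 against 119 to 125 (0.853). Crls1 was low on control array 1, at 137 against 220 to 232 (0.897), and Cebpb was low on quercetin array 2, at 57.8 against 94.4 to 101 (0.875). The mean log2 value of the macrophage and dendritic cell markers was low on quercetin array 2, at 7.34 against 7.74 to 7.78 (0.907).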

How the results depend on the processing

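No member probe set passed limma's adjusted threshold under any of the 21 alternatives (0 each, with 3 to 7 at an unadjusted p under 0.05). The lowest adjusted p of a member was 0.112, for Prelid1 with the GAPDH ratio as a covariate. Over all probe sets the count past the threshold was 2 with all arrays and the main settings. It was 3 with a pseudocount of 64, and 1 with a pseudocount of 1, with quantile normalisation, median centring, no filter, no trend, the brightest probe set per gene and probe sets averaged by gene. It was 0 without control arrays 1 and 2 together (1394 at an unadjusted p under 0.05), and 1 to 2 with each array left out in turn. The replicate block gave 1 and changed no member call. Same-numbered arrays had correlations of -0.15 to 0.16 in their deviations from the group means, so the numbers are not treated as pairs. Of 256 recomputed member differences 14 changed sign, all in Clpp (6), Hspe1 (5) and Clpx (3), whose values lie near 0. Only the brightest Hspa9 probe set moved by more than the spread within the diets, to 0.26 without control arrays 1 and 2. The cause was not tested. Of 252 list medians 13 changed sign, 5 of them for smooth muscle markers (-0.24 to 0.16). The median difference of all probe sets was 0.06 with median centring and 0.01 with the main settings. The number of arrays leaves differences of about 0.48 within the 95% interval of a typical probe set.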
